A study of Mus musculus with 6 samples.

Results

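The genes described here encode the mitochondrial respiratory chain, the ATP synthase and the machines that bring proteins into the mitochondrion. They were chosen by gene symbol, as probes whose single platform symbol starts with Nduf, Cox (the numbered nuclear subunits and assembly factors), Atp5, Uqcr, Sdh, Cyc1, Cycs, Etfa, Etfb, Timm or Tomm. Earlier results of these data were known when they were chosen. This gave 55 genes on 65 probes, of 5755 symbols on the array; no Cyc1 or Cycs probe matched. Of the 55 genes, 53 had enough values and are described in full, among 6807 rows tested; Ndufa1 and Ndufa2 are listed without a value on any array.

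The samples are 6 two-colour arrays. On each, RNA of airway smooth muscle cells from mice that overexpress the beta2-adrenergic receptor (TG in the titles, 2AR-OE in the labels) competed with RNA of cells from nontransgenic mice (NTG). Both kinds of cells grew out of tracheal explants in medium with 20% serum and were used at passages 8 to 10, and the labels give over 90% smooth muscle cells by actin staining. The labels name neither the promoter of the transgene nor the age or strain of the mice, and no agonist is given. The titles number the arrays 1 or 2 without saying what the number means; those numbered 1 are called set 1 (1A, 1B, 1C) and those numbered 2 are called set 2 (2A, 2B, 2C). The dye of the transgenic sample was Cy5 except on 1C and 2C, the swapped arrays, where it was Cy3. The labels tie no array to a culture or an animal of its own, and the p-values below therefore reflect array-to-array spread, possibly technical.

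Complex I (NADH dehydrogenase) and complex II (succinate dehydrogenase) feed electrons into ubiquinone, complex III passes them to cytochrome c, and complex IV reduces oxygen. The proton gradient that complexes I, III and IV build drives the ATP synthase, and the electron transfer flavoprotein brings in electrons from fatty acid oxidation. Most respiratory proteins are made in the cytosol and enter through the TOM complex of the outer membrane and the TIM complexes of the inner membrane. Airway smooth muscle uses ATP for contraction and for pumping calcium.

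Values are log2 ratios, likely transgenic over nontransgenic. This direction, and the assumption that the swapped columns were turned to it before deposit, are not stated in the labels. A reversed ratio would turn every sign below. For the main counts and medians, values with the signs of 1C and 2C alone reversed are also given, for the case in which those columns had not been turned. Errors are standard errors (SE) of the limma fit over n = 6 arrays unless given as SD. A change is called at a Benjamini-Hochberg adjusted p under 0.05 over all 6807 rows, by limma with a dye term. With the values as deposited, 484 rows were called for the transgene and 1 for dye. With the signs of 1C and 2C reversed, 1 row was called for the transgene and 484 for dye. The reversal exchanges the 2 terms of this fit, so these counts are the same result mirrored and not a separate one. Whether the columns had been turned was not tested. Spot intensities were not used here, so levels cannot be given or compared between genes, and the labelled cell type could be set only against ratios of its markers. Array 1C scattered most, with an SD of 1.04 over all its probes against 0.467 to 0.608 on the other arrays. In such bulk RNA, fewer cells of a type and less RNA per cell cannot be told apart.

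The upstream sequences of 4 members are shown. Ndufaf4 and Tomm70a were the members called for the transgene, and Atp5l and Ndufb8 were, with Atp5j2, the members with the lowest p for a difference between the sets. Each is the 250 bases before the RefSeq gene start in GRCm38.p6, read in the direction of the gene. Ndufaf4 lies at chr4:24897833-24898082 on the plus strand, Tomm70a at chr16:57121464-57121713 on the plus strand, Atp5l at chr9:44920743-44920992 on the minus strand and Ndufb8 at chr19:44555443-44555692 on the minus strand. Capitals mark matches, on either strand, to 4 motifs described with the promoters of all members further on.
Ndufaf4: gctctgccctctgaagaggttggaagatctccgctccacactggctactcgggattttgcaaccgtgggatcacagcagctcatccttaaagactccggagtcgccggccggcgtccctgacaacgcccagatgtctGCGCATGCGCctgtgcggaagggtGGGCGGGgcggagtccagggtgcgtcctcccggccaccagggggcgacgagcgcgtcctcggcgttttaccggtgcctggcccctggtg
Tomm70a: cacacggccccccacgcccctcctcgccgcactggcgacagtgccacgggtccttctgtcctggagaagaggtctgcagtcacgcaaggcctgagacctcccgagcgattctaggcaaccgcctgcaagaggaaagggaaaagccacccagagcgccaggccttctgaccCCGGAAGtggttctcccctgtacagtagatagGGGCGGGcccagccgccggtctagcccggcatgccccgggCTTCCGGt
Atp5l: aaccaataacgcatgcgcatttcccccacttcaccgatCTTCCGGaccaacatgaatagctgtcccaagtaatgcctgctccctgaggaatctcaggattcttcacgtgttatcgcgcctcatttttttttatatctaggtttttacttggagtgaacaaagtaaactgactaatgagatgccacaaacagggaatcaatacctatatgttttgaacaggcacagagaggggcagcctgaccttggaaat
Ndufb8: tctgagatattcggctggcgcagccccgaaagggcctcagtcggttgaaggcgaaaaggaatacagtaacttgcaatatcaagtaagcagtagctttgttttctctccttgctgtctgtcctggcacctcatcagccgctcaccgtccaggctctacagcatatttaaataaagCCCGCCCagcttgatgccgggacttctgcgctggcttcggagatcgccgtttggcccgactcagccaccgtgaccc

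**Figure D1:**
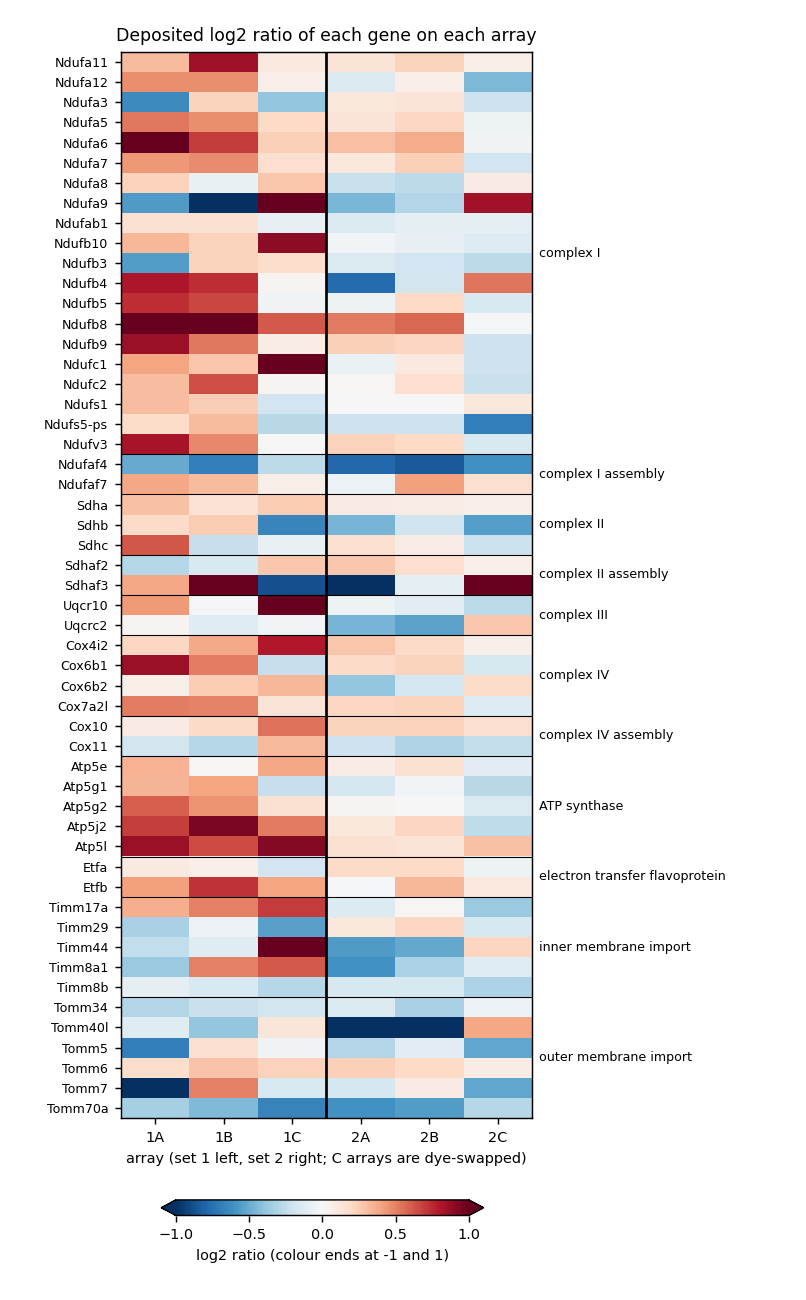
Deposited log2 ratio of the 53 genes (rows, grouped by complex or machine) on the 6 arrays (columns, set 1 left of the black line and set 2 right of it), from blue (below 0) to red (above 0). The arrays of set 1 are redder, with member medians of 0.30, 0.28 and 0.12, than those of set 2, with medians of -0.05, 0.07 and -0.13.

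The comparison of the 2 sets asked whether the transgenic ratio of these genes differed between the arrays numbered 1 and 2. Of the 34 subunit genes of the respiratory chain and ATP synthase, 30 had a mean ratio above 0 in set 1 and 18 in set 2. Their set 1 means had a median of 0.37 and their set 2 means one of 0.01, with set 2 running from -0.41 for Sdhb to 0.36 for Ndufb8. Over all 53 genes the median was 0.30 on array 1A, 0.28 on 1B and 0.12 on 1C. It was -0.05 on 2A, 0.07 on 2B and -0.13 on 2C, so the medians of the sets, as deposited, did not overlap. Of the 53 genes, 38, 39 and 34 were above 0 on 1A, 1B and 1C, and 23, 31 and 18 were above 0 on 2A, 2B and 2C. Over all rows tested the array medians lay between -0.0076 and 0.0168. With the signs of 1C and 2C reversed, the member median of 1C would lie below 0 and that of 2C above 0. The member medians of the sets would then overlap. Among 6756 single rows, as deposited, set 1 lay wholly above set 2 for 13.8% and wholly below it for 11.4%. A full separation of the sets is therefore not rare for a single row.

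By limma, 0 of 53 members passed for the difference of set 2 minus set 1, and 0 of 6807 rows did (0% of the background). At an unadjusted p under 0.05 stood 18 members, 34.0% of them, against 23.7% of all rows. Of these 18, 17 were lower in set 2, 32.1% of the members against 13.3% of all rows, and 1 was higher, 1.89% against 10.4%. The difference was below 0 for 46 of 53 members, against 57.0% of all rows, and its median was -0.29, against -0.06 over all rows. With 1 array left out the count below 0 ran from 43 to 46 and the median from -0.32 to -0.26; they were 43 and -0.32 without 1C. With the signs of 1C and 2C reversed, 35 of 53 were below 0, the median was -0.11, and 7 had an unadjusted p under 0.05. With arrays weighted by their scatter, limma called 9 members, all lower in set 2, and 825 rows (12.1%).

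The difference had the same sign in both dye orientations for most members. Among the arrays with transgenic RNA in Cy5 the member median of set 2 minus set 1 was -0.32, and between the swapped arrays 2C and 1C it was -0.25, against -0.04 and -0.02 over all rows. In both orientations at once, set 2 was lower for 34 of 53 members (64.2%, against 33.0% of the rows with 6 values) and higher for 4 (7.55%, against 26.6%). All 3 arrays of set 1 lay above all 3 of set 2 for 11 members (20.8%), against 13.8% of the rows, and the reverse held for 0 members, against 11.4%.

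**Figure D2:**
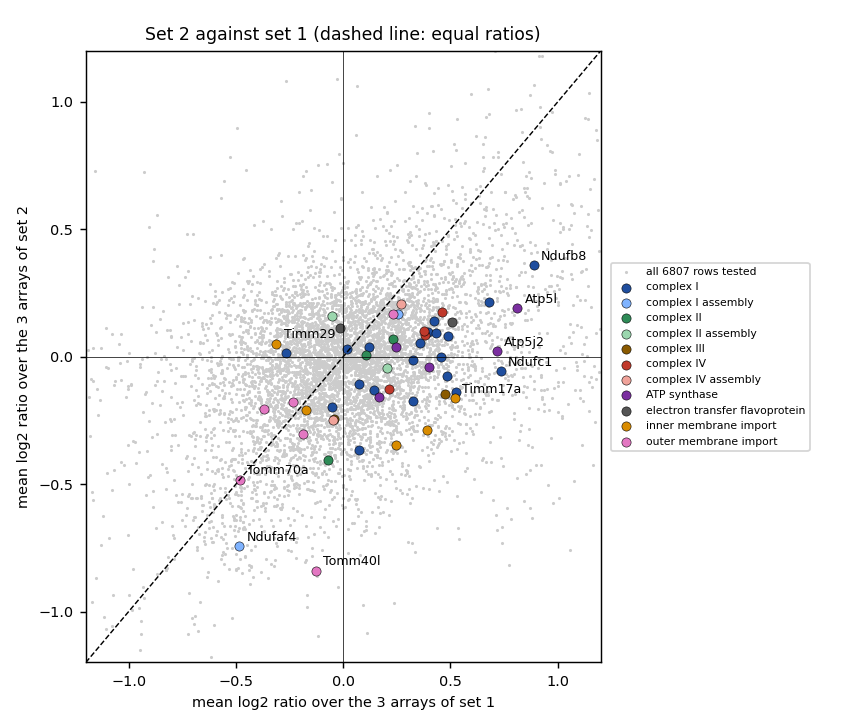
Mean log2 ratio over the 3 arrays of set 1 (horizontal) and of set 2 (vertical) for the 53 genes, coloured by complex or machine, over all 6807 rows tested (grey, cut at -1.2 and 1.2). Most coloured points lie below the dashed line of equal ratios, with 46 of 53 lower in set 2, and Tomm70a lies on it.

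The ATP synthase turns the proton gradient into ATP. All 5 measured genes had a lower mean in set 2, with a median difference of -0.44. Atp5l, subunit g of the membrane part, had ratios of 0.86, 0.65 and 0.92 on 1A, 1B and 1C and of 0.15, 0.13 and 0.29 on 2A, 2B and 2C. The sets of Atp5l did not overlap, though every ratio was above 0. Its difference was -0.62 ± 0.094 (unadjusted p = 0.00165, limma adjusted p = 0.0724). Atp5j2, subunit f of the membrane part, had ratios of 0.70, 0.94 and 0.52 in set 1 and of 0.11, 0.21 and -0.25 in set 2. These sets too stayed apart, with a difference of -0.70 ± 0.106 (limma adjusted p = 0.0724). Atp5g2, a precursor of the proton-carrying c ring, had ratios of 0.60, 0.45 and 0.16 in set 1 and of 0.03, 0.001 and -0.15 in set 2. Its difference was -0.44 ± 0.096 (limma adjusted p = 0.0937). Atp5g1 encodes the same c subunit with another import sequence. It gave -0.33 ± 0.124, with the swapped array 1C, at -0.23, among the values of set 2. Atp5e, the epsilon subunit of the catalytic head, showed the smallest difference of the 5, at -0.21 ± 0.150, and its sets overlapped.

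Complex I is the largest complex of the chain, and 20 genes with its symbols were tested. Of these, 18 were lower in set 2, with a median difference of -0.34, and 9 had an unadjusted p under 0.05. Ndufb8, an accessory subunit of the membrane arm, had the highest mean of any member in set 1, from 1.03, 1.02 and 0.62 on 1A, 1B and 1C. In set 2 it stood at 0.52, 0.57 and -0.01 on 2A, 2B and 2C, all below set 1. Its difference was -0.53 ± 0.083 (unadjusted p = 0.00189, limma adjusted p = 0.0724).

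All 6 Ndufb genes were lower in set 2, with a median of -0.50 and values from -0.66 for Ndufb4 to -0.14 for Ndufb3. Ndufb10 was above 0 on every array of set 1 (0.33, 0.22 and 0.89) and below 0 on every array of set 2 (-0.02, -0.08 and -0.13), with a difference of -0.56 ± 0.172. Ndufb5 gave -0.46 ± 0.151 and Ndufb9 -0.41 ± 0.125, both with overlapping sets, since 1C lay below arrays of set 2. Ndufb4 rested on discordant orientations, at -1.25 among the Cy5 arrays and 0.51 between the swapped ones. Ndufc1 had the largest difference of any member, -0.79 ± 0.327, with 1.54 on array 1C; the Cy5 arrays alone gave -0.32. Ndufc2 gave -0.34 ± 0.128.

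The 9 Ndufa genes with Ndufab1 counted ran from -0.50 to 0.28. Ndufa12 was the lowest, at -0.50 ± 0.093 (limma adjusted p = 0.0764), and differed by -0.50 in each dye orientation. Its ratios were 0.46, 0.46 and 0.05 in set 1 and -0.14, 0.06 and -0.45 in set 2, with 2B just above 1C. Ndufa5, Ndufa6 and Ndufa7 stood at -0.30 ± 0.081, -0.47 ± 0.149 and -0.31 ± 0.085, and Ndufa8 and Ndufa11 at -0.28 ± 0.115 and -0.28 ± 0.182. Ndufab1, the mitochondrial acyl carrier protein, kept its sets apart by a narrow margin, with a difference of -0.18 ± 0.096. Ndufa3 (0.28 ± 0.246) and Ndufa9 (0.01 ± 0.298) were the 2 complex I genes not lower in set 2. Ndufv3, of the NADH-binding module, gave -0.34 ± 0.134. Ndufs5-ps, a transcribed pseudogene in the gene table, gave -0.44 ± 0.084; its probe may also catch its parent gene, so this value is uncertain.

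Complexes II, III and IV had few measured genes, and all 9 were lower in set 2. Sdha, the flavoprotein of complex II, was above 0 on 6 of 6 arrays, at 0.30, 0.14 and 0.26 in set 1 and 0.08, 0.07 and 0.05 in set 2. Its sets were apart, but the difference was small (-0.16 ± 0.086, limma adjusted p = 0.325). Sdhb, the iron-sulphur subunit, and Sdhc, a membrane anchor, gave -0.33 ± 0.178 and -0.10 ± 0.242. Uqcr10, a small subunit of complex III, had ratios of 0.42, -0.02 and 1.02 in set 1 and -0.05, -0.12 and -0.27 in set 2; its difference of -0.62 ± 0.262 rested largely on 1C, since the Cy5 arrays alone gave -0.29. Uqcrc2, a core protein of that complex, gave -0.20 ± 0.185, and its orientations disagreed (-0.45 and 0.29).

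The fitted differences of the 4 complex IV genes ran from -0.34 to -0.27, but their orientations or probes did not all agree. Cox6b1, the form of subunit 6b found in most tissues, gave -0.29 ± 0.169. It differed by -0.48 among the Cy5 arrays and by 0.07 between the swapped ones. Cox6b2, its testis form, gave -0.34 ± 0.125, with -0.44 and -0.15 in the same order. Cox4i2, the lung form of subunit 4, gave -0.29 ± 0.177 and was above 0 on 6 of 6 arrays. Its orientations gave -0.06 and -0.75, with 0.80 on 1C. Cox7a2l, which helps complexes III and IV associate, gave -0.27 ± 0.076, averaged over probes at -0.54 and -0.005. Of the flavoprotein subunits, Etfb kept its sets apart (0.41, 0.72 and 0.39 against -0.02, 0.33 and 0.10, difference -0.37 ± 0.150), while Etfa stood at 0.13 ± 0.076. The 2 gene products form 1 heterodimer.

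Import and assembly genes are given apart from the subunits. For the 34 subunit genes of complexes I to V, 32 were lower in set 2, with a median difference of -0.33. For the 11 import genes the count was 8 and the median -0.06, and for the 6 assembly factors 5 and -0.14; no test compared these groups. The import median rested on array 1A: without it, it was -0.41, with 8 of 11 below 0, against -0.32 for the subunits. With the signs of 1C and 2C reversed, 26 of 34 subunit genes were lower in set 2 (median -0.17), and 5 of 11 import genes (median 0.03). Within the inner membrane machinery Timm17a, part of the TIM23 channel, had ratios of 0.36, 0.50 and 0.70 in set 1 and -0.14, 0.02 and -0.37 in set 2, which did not overlap (difference -0.69 ± 0.158, limma adjusted p = 0.0992). Timm29, of the TIM22 carrier translocase, was the 1 member higher in set 2 at an unadjusted p under 0.05, with -0.33, -0.06 and -0.55 against 0.10, 0.21 and -0.16 (0.36 ± 0.108). Timm44, which tethers the import motor, gave -0.68 ± 0.230, and Timm8a1 and Timm8b, small chaperones between the membranes, gave -0.59 ± 0.263 and -0.03 ± 0.077.

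The outer membrane genes had a median difference of -0.03, which was 0.0061 without array 1C, 0.05 without 1B and -0.26 without 1A. Tomm40l, a relative of the channel protein Tom40, was the lowest (-0.71 ± 0.388) and rested on the Cy5 arrays of set 2, at -1.10 and -1.80. Tomm34, Tomm6 and Tomm70a differed by 0.06 ± 0.093, -0.06 ± 0.088 and -0.002 ± 0.151. Tomm5 and Tomm7, small parts of the translocase, gave -0.12 ± 0.271 and 0.17 ± 0.564, the latter with -1.45 on 1A beside 0.50 on 1B. Of the assembly factors, Ndufaf4 was lower in set 2 at -0.26 ± 0.094, and Ndufaf7, a methyltransferase for complex I, and the complex IV factors Cox10 and Cox11 differed by -0.09 ± 0.159, -0.06 ± 0.132 and -0.20 ± 0.145. Sdhaf2 and Sdhaf3, which mature Sdha and Sdhb, gave 0.21 ± 0.168 and -0.25 ± 1.318; Sdhaf3 ran from -2.38 on 2A to 2.35 on 2C and carries no usable estimate.

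**Figure D3:**
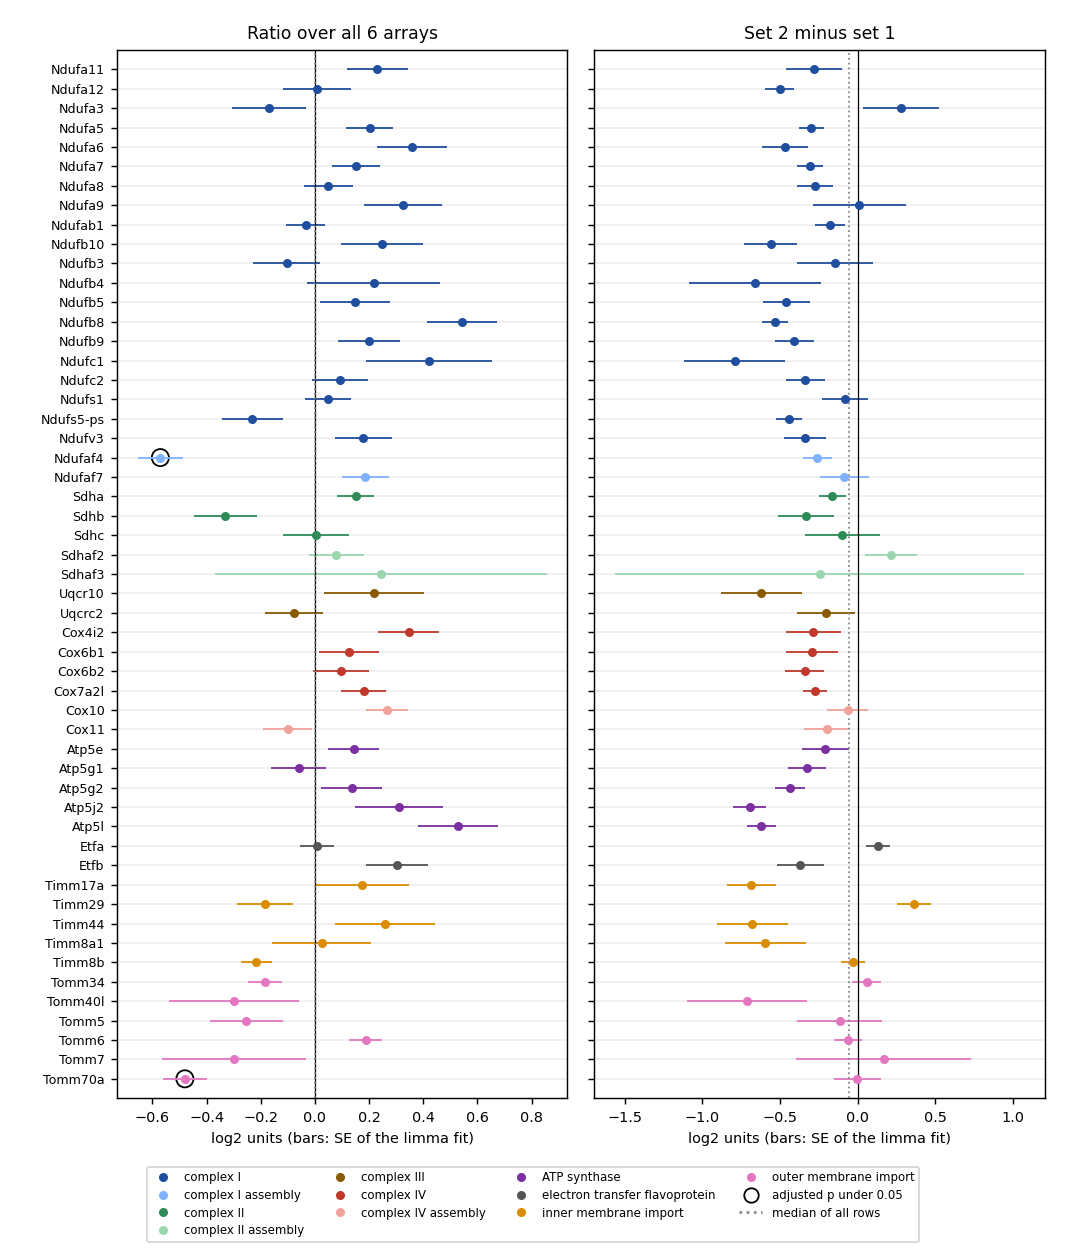
Fitted log2 ratio over all 6 arrays (left) and difference of set 2 minus set 1 (right) for each gene, with SE of the limma fit; circles mark an adjusted p under 0.05 and the dotted line the median of all rows. Ndufaf4 and Tomm70a are circled at the left, and 46 of 53 differences lie below 0 at the right.

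The comparison of transgenic with nontransgenic cells over all 6 arrays addressed the study's stated question on persistent receptor signalling; the groups differ by receptor overexpression, and receptor activity was not measured here. Of the 53 members, 2 fell and 0 rose, or 3.77%, against 7.11% of all rows called, 3.09% of them lower and 4.03% higher. A total of 12 members had an unadjusted p under 0.05, or 22.6%, against 27.7% of all rows. Ndufaf4, an assembly factor of complex I, and Tomm70a, the import receptor of the outer membrane for carrier proteins, were the 2 that fell. Their share, 3.77%, is near the 3.09% of all rows called lower, so no contrast with the subunits can be read from these 2 calls.

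Ndufaf4 was below 0 on 6 of 6 arrays, with ratios of -0.51, -0.68, -0.26, -0.78, -0.84 and -0.61 on 1A, 1B, 1C, 2A, 2B and 2C. The fit gave -0.57 ± 0.084, a 1.49-fold lower ratio (limma adjusted p = 0.0169). Tomm70a was also below 0 on every array, with -0.33, -0.45, -0.67, -0.61, -0.56 and -0.28 in the same order. Its ratio was -0.48 ± 0.082, or 1.39-fold lower (limma adjusted p = 0.0254), and its set means, -0.48 ± 0.17 and -0.48 ± 0.174 (SD, n = 3 each), were alike. With 1 array left out, 0 members were called without 1B, 2A or 2B, where 3.00%, 2.49% and 2.57% of all rows were called. Ndufaf4 lost the call without 1B, 2A or 2B (limma adjusted p = 0.0559 to 0.0644), and Tomm70a lost it without 1A, 1B, 1C, 2A or 2B (limma adjusted p = 0.0551 to 0.0931); with the set as a random block Tomm70a stood at limma adjusted p = 0.1. With the signs of 1C and 2C reversed, Ndufaf4 would stand at -0.13 and Tomm70a at -0.0054, neither past the threshold. In that setting 1 of 6807 rows was called (0.0147%).

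The ratio over all arrays was above 0 for 37 of 53 members, against 50.3% of all rows, with a member median of 0.136 against 0.0018. Array 1C bears on this value: without it the median was 0.0245 and 29 members were above 0. It was also lower with array weights (0.0369), after quantile normalization (0.0774) and without the dye term (0.08), and with the signs of 1C and 2C reversed it was 0.0381, with 31 of 53 above 0. Respiratory subunits and outer membrane import genes lay on different sides. Of the 34 subunit genes 27 were above 0, with a median of 0.15 (0.06 without 1C), whereas 5 of 6 outer membrane genes were below 0, with a median of -0.28 (-0.30 without 1C). With the signs of 1C and 2C reversed the outer membrane median was 0.0091.

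Among subunits Ndufb8 and Atp5l had the highest ratios, at 0.54 ± 0.128 and 0.53 ± 0.147 (limma adjusted p = 0.0623 and 0.0888), followed by Ndufc1 (0.42 ± 0.232) and Ndufa6 (0.36 ± 0.130). The fit with the set as a fixed term called 10 members, 4 lower and 6 higher, and 1168 rows (17.2%); without array 2C 10 were called, 2 lower and 8 higher, among 1689 rows (24.9%). Atp5l and Ndufb8 were among the higher ones in both. The lowest subunits were Sdhb (-0.33 ± 0.118), with 0.19 and 0.26 on 1A and 1B but -0.66, -0.46, -0.20 and -0.55 on 1C, 2A, 2B and 2C, Ndufs5-ps (-0.23 ± 0.112) and Ndufa3 (-0.17 ± 0.136).

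Members with 1 sign on all 6 arrays numbered 10. Above 0 throughout were Sdha, Tomm6, Ndufa11, Cox10, Cox4i2 and Atp5l, or 11.3% of the members against 11.2% of the rows, and below 0 throughout were Ndufaf4, Tomm70a, Timm8b and Tomm34, or 7.55% against 8.51%. Cox10, which makes the haem A precursor of complex IV, stood at 0.27 ± 0.076 (limma adjusted p = 0.0937) and Cox4i2 at 0.35 ± 0.112 (limma adjusted p = 0.118). Timm8b and Tomm34, a cytosolic helper of import, stood at -0.22 ± 0.057 and -0.18 ± 0.063 (limma adjusted p = 0.0778 and 0.132). Ndufa11, Tomm6 and Sdha lay between 0.15 and 0.23. The remaining complex III, flavoprotein and ATP synthase genes ran from -0.08 for Uqcrc2 to 0.31 for Atp5j2.

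Within each set, fitted alone on its 3 arrays, 0 members passed by limma, against 0 of 6762 rows in set 1 and 98 of 6804 in set 2. At an unadjusted p under 0.05 stood 11 members and 1297 rows in set 1, and 9 members and 1540 rows in set 2. In set 1, 38 of 53 means were above 0, with a median of 0.25 against 0.02 over all rows. In set 2, 25 were above 0, with a median of -0.01 against -0.02. All 3 arrays were above 0 for 25 members in set 1 (47.2%, against 1687 of 6756 rows) and for 7 in set 2 (13.2%, against 24.2%).

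The dye comparison asked which members gave other ratios when the dyes were exchanged. By limma 0 of 53 members passed, against 0.0147% of all rows, and 3 had an unadjusted p under 0.05 (5.66%, against 18.2%). The strongest was Ndufa9, an accessory subunit near the quinone site, with -0.57, -0.998, -0.46 and -0.29 on the 4 Cy5 arrays and 1.62 and 0.84 on 1C and 2C. Its orientations did not overlap, and the dye term was -1.81 ± 0.290 (limma adjusted p = 0.164), so its ratio over all arrays, 0.33 ± 0.145, averages opposite signs. Timm44 behaved alike, below 0 on the 4 Cy5 arrays and at 1.54 and 0.22 on the swapped ones (dye term -1.24 ± 0.372, limma adjusted p = 0.206).

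Several probes were averaged for 9 of the genes, and they often disagreed. For Ndufs1, an iron-sulphur subunit of complex I, probe 480068 was above 0 on every array, from 0.16 to 1.04. Probe 672245 lay between -0.18 and 0.19, and probe 721637 ran from -0.90 to 0.05. Their mean, 0.05 ± 0.083 with a set difference of -0.08 ± 0.148, therefore stands for no single probe. Probe 386766 of Ndufa7 differed between sets by -0.69 ± 0.089 (limma adjusted p = 0.069 over all probes), while probe 465903 gave 0.08 ± 0.092. The probes of Cox7a2l gave -0.54 ± 0.087 and -0.005 ± 0.091, and those of Ndufab1 -0.42 ± 0.140 and 0.05 ± 0.084. For Ndufc1 the value on 1C came from probe 620675, at 2.88 there, while probe 423071 stood at 0.20. That second probe still differed by -0.58 ± 0.096. For Timm8a1, probes 330146 and 579733 stood at -0.49 and 1.73 on 1C, and differed between sets by -0.24 ± 0.434 and -0.95 ± 0.464.

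The probes of the 2 called genes had 1 direction in the fit. Ndufaf4 probe 424848 fell by 0.73 ± 0.074 (limma adjusted p = 0.00727), and probe 676123 gave -0.41 ± 0.117 (limma adjusted p = 0.0951), with 0.13 on 1C. Tomm70a probe 634749 fell by 0.47 ± 0.067 (limma adjusted p = 0.017), and probe 874588 gave -0.49 ± 0.134 (limma adjusted p = 0.0894), with 0.09 on 2C.

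**Figure D4:**
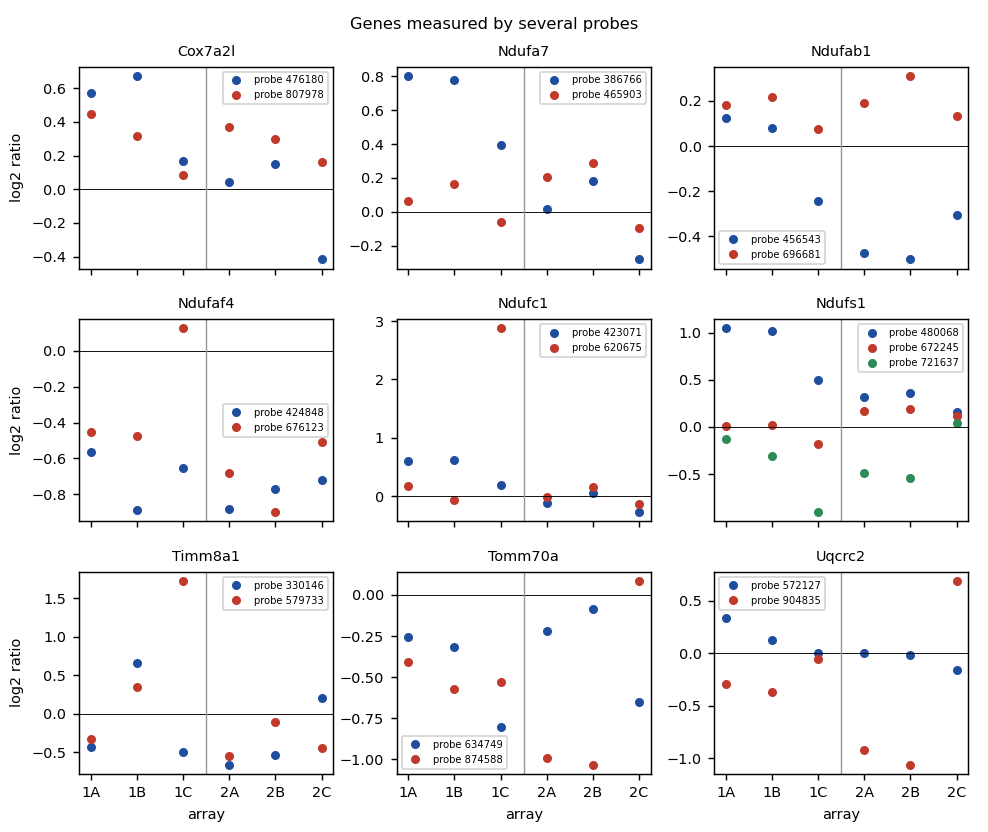
Log2 ratio on each array (set 1 left of the grey line) for the 9 genes with several probes, with 1 colour per probe. The probes of Ndufs1 keep apart on most arrays, probe 620675 of Ndufc1 stands at 2.88 on 1C, and both probes of Ndufaf4 are below 0 on 5 of 6 arrays.

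The promoters were searched for motifs known from respiratory genes and for the cyclic AMP response element, the site of the factor that the receptor's second messenger activates. RefSeq upstream sequence in GRCm38.p6 was at hand for 45 of the 53 members, matched by gene ID; Ndufs1, Ndufs5-ps, Ndufb9, Sdhc, Uqcrc2, Cox4i2, Tomm40l and Tomm7 had no entry. The NRF1 motif (GCGC, any base, then TGCGC) was found, on either strand, in 8 of 45 (17.8%), against 4.23% of 27025 genes with such a sequence. The 8 were Atp5g2, Etfb, Ndufa11, Ndufa5, Ndufa8, Ndufaf4, Ndufb4 and Sdha. The GABP (ETS) core CCGGAAG was found in 10 of 45 (22.2%, against 7.83%), Tomm70a and Atp5l among them. The GC box GGGCGGG was found in 17 (37.8%, against 25.7%) and the response element TGACGTCA in 1, Ndufa11 (2.22%, against 1.77%).

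In the sequences printed above, the capitals of Ndufaf4 are the NRF1 motif, with A as its free base, from 113 to 104 bases before the start, and a GC box from 89 to 83. Tomm70a holds the GABP core from 80 to 74 and, on the other strand, from 8 to 2 bases before the start, with a GC box from 48 to 42. Atp5l holds the GABP core on the other strand from 212 to 206, and Ndufb8 a GC box on the other strand from 76 to 70. The letters of the GC box and the GABP core do not overlap those of another match in these 4 windows. A match describes the letters only.

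Most other mitochondrial gene lists had a median set difference below 0, as the members did, and only that of biogenesis regulators and DNA was above 0. On few genes each, the median was -0.57 for carriers and pores, -0.29 for antioxidants and -0.14 for fusion and fission. Of 35 mitochondrial ribosomal protein genes, 28 were lower in set 2, with a median of -0.24, and 0 passed for the set difference. They ran from -1.08 ± 0.617 for Mrps28 to 0.38 ± 0.091 for Mrpl32. Mrpl55, of the large subunit, rose in transgenic cells (0.50 ± 0.077, limma adjusted p = 0.0193), the 1 called gene of this list. Of 8 citric acid cycle genes 6 were lower in set 2 (median -0.27): Cs, citrate synthase, was the lowest at -0.66 ± 0.171, and Ogdh, which makes succinyl-CoA, was the highest at 0.41 ± 0.081. No citric acid cycle gene passed for the transgene, with Ogdh at -0.42 ± 0.106 (limma adjusted p = 0.0721).

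Among 3 carrier and pore genes, Slc25a5, the exchanger of ADP and ATP, gave -0.57 ± 0.091 and Mpc1, part of the pyruvate carrier, -0.87 ± 0.160 between sets, neither past the threshold (limma adjusted p = 0.0724 and 0.0753). Of 4 regulators of mitochondrial biogenesis and DNA, Polg, the mitochondrial DNA polymerase, fell in transgenic cells (-0.45 ± 0.096, limma adjusted p = 0.0467). In this list 1 of 4 was lower in set 2 (median 0.06), and Polg stood wholly higher there (0.35 ± 0.084, limma adjusted p = 0.1). Of 6 mitochondrial chaperones and proteases 4 were lower in set 2, with a median of -0.06, that of all rows. Of 2 mitochondrial antioxidant genes Txn2, mitochondrial thioredoxin, fell (-0.32 ± 0.065, limma adjusted p = 0.0423), while Prdx3, a peroxidase that thioredoxin reduces, stood at 0.46 ± 0.117 (limma adjusted p = 0.0729). Gabpa and Gabpb1, the factor that binds the GABP core, stood at -0.40 ± 0.132 and -0.12 ± 0.067, neither past the threshold.

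Some cell type markers were called for the transgenic ratio and none for the difference between the sets. Their part in the members' values was not tested. In transgenic cells Thy1 and Mfap5, fibroblast markers, rose by 2.73 ± 0.207 and 0.81 ± 0.074 (limma adjusted p = 0.00411 and 0.00451). Col11a1, a cartilage collagen, fell by 1.10 ± 0.091 (limma adjusted p = 0.00411). Cnn1, a smooth muscle marker, rose by 0.59 ± 0.105, Mb, of heart and skeletal muscle, by 0.29 ± 0.062, and Cdh1, of epithelium, by 0.32 ± 0.060 (limma adjusted p = 0.028, 0.0459 and 0.0333). These were the 6 called genes of the marker lists, of 24 tested, where 7.11% of all rows were called. The other smooth muscle marker measured, Smtn, stood at -0.05 ± 0.082. Of the fibroblast markers 4 of 5 stood above 0, with Pdgfra at -0.02 ± 0.138. Of the endothelial markers 0 of 3 stood above 0, with Cdh5 at -0.84 ± 0.242, Eng at -0.52 ± 0.227 and Tek at -0.37 ± 1.030.

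Between the sets 0 marker genes passed. The 2 smooth muscle markers measured, of 10 listed, gave -0.39 ± 0.098 for Cnn1, with set 1 wholly above set 2, and -0.06 ± 0.147 for Smtn. The 5 of 8 fibroblast markers went both ways. Thy1 had -0.82 ± 0.219, with set 1 wholly above, and Pdgfra 0.44 ± 0.198, with set 2 wholly above. Dpt, Lum and Mfap5 gave 0.80 ± 0.912, 0.19 ± 0.333 and -0.07 ± 0.124, and the list's array medians were 0.43 to 0.98 in set 1 and 0.66 to 1.33 in set 2. Of the 3 of 6 endothelial markers, Cdh5 (1.08 ± 0.100) and Eng (0.92 ± 0.222) lay wholly higher in set 2, opposite in sign to most members. Tek had a single value in set 2, -4.58 on 2A, and gives no usable difference. The median was 0.08 over 3 of 12 heart and skeletal muscle markers, 0.07 over 5 of 8 macrophage and leukocyte markers and 0.17 over 4 of 5 cartilage markers, and the single epithelial and adipocyte markers gave -0.05 and -0.40.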

How the data were processed

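RNA of transgenic and nontransgenic airway smooth muscle cells was compared on 6 two-colour arrays. The authors deposited a single log2 ratio for each probe on each array. Cy3 and Cy5 cDNA competed on printed slides, per the labels' protocols. No label or header names the scanner, background correction, normalization, filters or ratio direction. The array medians lay between -0.0012 and 0.0007, so the values were already centred. Swapped columns were taken as turned. Precision is limited by the number of arrays.

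Probes with 1 platform symbol (7540 of 8734) were averaged per symbol and array; all 65 member probes matched the GRCm38.p6 gene table by Entrez ID. Rows needed values on 4 arrays and both orientations. limma 3.58.1 (R 4.3.3; lmFit, eBayes) fitted the transgenic ratio with a dye term over all 6 arrays, and the set difference with a set term added; the scripts were tested on simulated data. Figures and summaries used Python 3.11.15. Members, gene lists and tests were chosen with earlier results of these data known. Genes were named when called, when of 1 sign on all arrays, when the sets did not overlap, and as the extremes of each complex. Over 6756 rows, deviations from the set mean correlated between arrays of the same letter (r = 0.191 for A, 0.181 for B and 0.303 for C). They were taken without a dye term. The dye orientation that the C arrays share therefore enters all 3 values, which cannot show a pairing by letter. No label states such a pairing. Alternatives covered arrays left out, floor values, filters, single probes, scaling, weights, blocks and reversed signs on the swapped arrays.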

Additional observations from a re-analysis of the deposited data

Results flagged for a closer look

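Single arrays stood far from the other 5, by the gap to the nearest value over the whole range, for 5 of 53 members. The rule flags about 1 in 20 by chance only where all arrays scatter alike, and 1C scattered most. The share over all rows was not computed, so no excess among the members can be read from this count. Array 1C was the lone array for 4 of them. It held 1.54 for Ndufc1, 0.54 for Cox10, 0.32 for Cox11 and 1.54 for Timm44. Array 1B held 0.85 for Ndufa11. Ndufb10 was above 0 on all arrays of set 1 and below 0 on all of set 2, with a difference of -0.56; this sign change itself was not tested, and limma's adjusted p for the difference was 0.15.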

How the results depend on the processing

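The count of 2 members called for the transgene, beside 7.11% of all rows, ran from 0 to 10 with 1 array left out. The share of all rows then ran from 2.49% to 24.9%. The member count was 1 with array weights (2.51% of all rows), 1 with the set as a random block (2.89%) and 4 on the Cy5 arrays alone (15.4%). With the set as a fixed term it was 10 (17.2%), and with the signs of the swapped arrays reversed 0 (0.0147%). Ndufaf4 and Tomm70a were below 0 under all settings run. The count of 0 for dye ran from 0 to 3 with 1 array left out, the 3 without 2C among 987 of 6774 rows (14.6%). It was 2 with those signs reversed, among 484 rows (7.11%), because the dye and transgene terms then change places. The count of 0 for the set difference was 9 with array weights (12.1% of all rows) and 0 under every other setting run. The median set difference of members was -0.11 with those signs reversed, against -0.005 over all rows, and between -0.33 and -0.26 otherwise. With the letter as a replicate block 0 members passed for the set difference, with a median of -0.29, so this block changed no call there. With the letter as a random replicate block, in a fit without the dye term, 3 members were called for the transgene (6.83% of all rows). The fit without the dye term alone called the same 3 genes, Ndufaf4, Ndufb8 and Tomm70a (6.76% of all rows). The block correlation was -0.0049. The cause of these shifts was not tested. Spot signal was not used here, so dim and bright probes count alike.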

Other observations

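Genes that act beside the respiratory chain gave mixed ratios. Of 4 glycolysis genes, Aldoa, aldolase A, had a set difference of -0.70 ± 0.112 and Gapdh one of -0.48 ± 0.097 (limma adjusted p = 0.0724 and 0.0844), in the direction of most respiratory subunits, while Hk1, hexokinase 1, gave 0.17 ± 0.077 and Aldoc, aldolase C, 0.81 ± 0.666. No glycolysis gene passed for the transgene or for the sets. Of 4 genes of mitochondrial fusion and fission, Dnm1l, the fission GTPase, was the lowest between sets (-0.42 ± 0.202) and Opa1, of inner membrane fusion, the highest (0.29 ± 0.156). Of 6 mitochondrial chaperones and proteases 0 passed; Hspa9, the Hsp70 of the import motor, stood at -0.34 ± 0.083 for the transgene (limma adjusted p = 0.0646).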
